A study of Mus musculus with 47 samples.

Results

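Transcripts of 39 cell cycle and proliferation genes were followed in brown fat, white fat and gastrocnemius muscle of mice with and without a tumour. The members are genes of DNA replication and of mitosis that were listed by symbol, and all 39 were found among the 24391 genes of both deposited count tables. Of them 29 act in mitosis and 10 in DNA replication.

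Cells that divide copy their DNA in S phase and part the copies in mitosis. Many genes for both steps are transcribed mostly in a part of the cycle and fall in cells that have left it. Transcripts of such genes in a whole tissue serve as marks of its dividing cells, but not every member is limited to such cells. Mature fat cells and muscle fibres do not divide, and the cycling cells of these tissues are preadipocytes and other stromal cells, vessel cells, immune cells and, in muscle, satellite cells. In whole tissue, fewer dividing cells and less of these RNAs per cell cannot be told apart.

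Every animal was a C57Bl6 mouse. 3P10 mice carried HT1080 tumours, grown from a human fibrosarcoma cell line, and were dosed with the antibody 3P10, which blocks GFRAL, the hindbrain receptor of the stress hormone GDF15. IgG1 mice carried the same tumours and received a control antibody. The dose of each antibody was 3 mg/kg once a week, starting on day 0. NTB mice had no tumour, and no antibody or dose is named for them. A comparison of IgG1 with NTB therefore joins the tumour with the control antibody. Tissue was taken on day 21 from all groups, and the age, sex and immune status of the mice were not given in the sources used here. Brown fat gave 6 3P10, 5 IgG1 and 6 NTB libraries, and white fat and muscle gave 5 libraries per group.

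Library totals were 0.799 to 2.46 M counts in brown fat, 18.6 to 80.7 M in white fat and 24.8 to 33.5 M in muscle, where M is 1000000 counts. Levels are counts per M after scaling of the libraries (CPM). Every tissue carried its defining markers in all groups. The summed fat cell markers were 24530 to 35134 CPM in white fat, the brown fat cell markers 6734 to 11495 CPM in brown fat and the muscle fibre markers 184955 to 337920 CPM in muscle. Some libraries stood apart from their own group. White fat IgG1 replicates 2 and 4 held 317 and 1100 CPM of keratinocyte and mammary epithelial markers. They also held 3286 and 3143 CPM of Ucp1, the uncoupling protein of brown and beige fat cells. Across the remaining 13 libraries of white fat, Ucp1 lay between 37.1 and 712 CPM. Replicate 4 is also the library of 80.7 M counts. In muscle, 3P10 replicate 2, IgG1 replicates 2 and 4 and NTB replicate 3 held 35779 to 54992 CPM of Tnnt3, the fast fibre troponin T, against 15726 to 25275 CPM in the other 11 muscle libraries. In brown fat the library numbers run through one group after another, and that order and the group cannot be told apart.

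Promoters of genes expressed late in the cycle are known for CCAAT boxes, bound by NF-Y, together with a cell cycle homology region (CHR), at which the DREAM and MuvB complexes act, while S phase genes are known for E2F sites. RefSeq promoter windows (GRCm38.p6, 250 bases before to 50 after the start) were found for 33 of the 39 members, and Ccna2, Foxm1, Aurkb, Kif20a, Tpx2 and Mcm4 had no entry. Each window was searched on both strands for CCAAT, for a CHR, spelled either TTTGAA or, as a variant equal to its own reverse complement, TTCGAA, and for an E2F core, spelled either TTCCCGC or, in its other common form, TTGGCGC. The 120 bases before the start are shown for 8 members, chosen to set mitosis genes beside replication genes and a member with no match (Birc5). Capitals mark the letters searched for, on either strand, so a CCAAT on the other strand reads ATTGG and a CHR reads TTCAAA.
Ccnb1 (chr13:100786487-100786606, minus strand): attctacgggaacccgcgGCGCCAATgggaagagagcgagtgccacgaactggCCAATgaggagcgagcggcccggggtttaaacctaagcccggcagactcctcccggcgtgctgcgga
Ccnb2 (chr9:70421555-70421674, minus strand): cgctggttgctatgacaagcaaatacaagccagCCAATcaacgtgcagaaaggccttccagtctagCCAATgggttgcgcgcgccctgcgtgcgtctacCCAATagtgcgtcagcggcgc
Cdk1 (chr10:69352913-69353032, minus strand): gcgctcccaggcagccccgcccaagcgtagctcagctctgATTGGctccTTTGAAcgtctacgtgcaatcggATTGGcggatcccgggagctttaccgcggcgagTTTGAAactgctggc
Top2a (chr11:99024190-99024309, minus strand): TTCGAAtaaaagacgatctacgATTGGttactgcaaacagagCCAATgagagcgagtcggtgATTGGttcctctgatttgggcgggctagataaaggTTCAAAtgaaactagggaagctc
Ube2c (chr2:164769809-164769928, plus strand): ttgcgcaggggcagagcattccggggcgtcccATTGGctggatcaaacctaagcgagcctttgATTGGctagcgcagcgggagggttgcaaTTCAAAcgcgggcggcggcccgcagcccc
Birc5 (chr11:117849117-117849236, plus strand): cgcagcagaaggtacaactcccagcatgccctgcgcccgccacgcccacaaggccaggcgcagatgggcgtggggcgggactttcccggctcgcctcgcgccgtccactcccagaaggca
Mcm6 (chr1:128359706-128359825, minus strand): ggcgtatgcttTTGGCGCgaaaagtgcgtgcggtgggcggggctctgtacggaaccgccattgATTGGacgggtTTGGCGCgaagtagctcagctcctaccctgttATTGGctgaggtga
Rrm1 (chr7:102441575-102441694, plus strand): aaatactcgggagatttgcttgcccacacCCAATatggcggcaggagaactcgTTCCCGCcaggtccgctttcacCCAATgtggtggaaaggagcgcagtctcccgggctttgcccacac

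The E2F match of Ccnb1 shares letters with its first CCAAT box. In the 300-base windows, 29 of 33 members (87.9%) held a CCAAT, against 37.9% of all 27025 promoters in the table. A CHR was found in 22 of 33 (66.7%), against 19.4% of all promoters, and both motifs were found in 21 (63.6%), against 7.70%. The CHR matches lay in 20 of 24 mitosis members (83.3%) and in 2 of 9 replication members (22.2%). An E2F core was found in 3 of 24 mitosis members (12.5%) and in 5 of 9 replication members (55.6%), against 6.93% of all promoters. Many CHR matches lay after the start, as in Aurka, Plk1, Bub1, Ttk, Cenpf and Kif23. In the 250 bases before the start alone, 10 of 33 members (30.3%) held a CHR, against 17.4% of all promoters. There the split was 8 of 24 mitosis members (33.3%) and 2 of 9 replication members (22.2%). A match is a run of letters and shows no binding.

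White fat had the most called members. Of 37 members tested, 14 fell in IgG1 against NTB and 0 rose, where 4.55% of all 14402 genes tested were called lower and 4.09% higher. Called means an adjusted p under 0.05 (edgeR quasi-likelihood test with Benjamini-Hochberg adjustment over all genes of the tissue). Bub1 and Ttk had too few reads to be tested. Of the 27 mitosis members tested 13 fell, with a median log2 fold change of -1.37, and of the 10 replication members 1 fell, Rrm2, with a median of -0.34. The median over all genes tested was -0.01. In 34 of 37 members the value lay below 0, as it did for 50.7% of all genes, and in 10 the groups did not overlap and IgG1 was lower, as in 4.95% of all genes.

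Top2a, the topoisomerase that untangles sister chromatids, was 2.56, 4.68, 5.67, 4.35 and 3.21 CPM in 3P10, 4.34, 2.09, 1.06, 1.75 and 0.871 CPM in IgG1 and 7.07, 17.7, 9.82, 5.21 and 5.44 CPM in NTB. All 5 IgG1 libraries lay below all 5 NTB libraries, and the log2 fold change was -2.17 (SE 0.44, adjusted p = 0.0120). Mki67, which encodes Ki-67, the protein that coats mitotic chromosomes, was 3.50, 5.16, 6.05, 2.90 and 2.21 CPM in 3P10, 4.54, 2.13, 0.344, 2.74 and 0.53 CPM in IgG1 and 6.97, 19.3, 12.04, 4.27 and 5.62 CPM in NTB. IgG1 replicates 3 and 5 were the lowest, NTB replicate 2 the highest, and IgG1 replicate 1 lay above NTB replicate 4. The value was -2.23 (SE 0.59, adjusted p = 0.0344).

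Of the 8 spindle and cytokinesis members 3 fell, and one of them, Tpx2, had the smallest p of all members. Tpx2, a microtubule nucleator that activates Aurora A at the spindle, was 1.11, 2.001, 2.13, 0.966 and 1.28 CPM in 3P10, 1.24, 1.05, 0.594, 0.606 and 0.454 CPM in IgG1 and 2.35, 4.94, 3.72, 2.46 and 2.36 CPM in NTB. Both tumour groups lay wholly below NTB, and IgG1 against NTB gave -2.02 (SE 0.35, adjusted p = 0.00775). Prc1, which bundles microtubules in the spindle midzone, was 1.21, 1.28, 2.52, 1.23 and 0.965 CPM in 3P10, 2.23, 1.05, 0.281, 0.763 and 0.454 CPM in IgG1 and 3.23, 10.8, 5.08, 2.71 and 2.54 CPM in NTB. The IgG1 and NTB libraries did not overlap, and the value was -2.36 (SE 0.54, adjusted p = 0.0200). Kif23, the kinesin of centralspindlin, averaged 1.36 ± 0.340 CPM in IgG1 and 3.61 ± 1.40 CPM in NTB (SD, n = 5 each), with a fitted difference of -1.40 (SE 0.32, adjusted p = 0.0202). Of the other 5 members of this role, Kif11, Kif20a, Kif4, Nusap1 and Anln, the values were -1.52 to -0.18, and none was called.

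**Figure D1:**
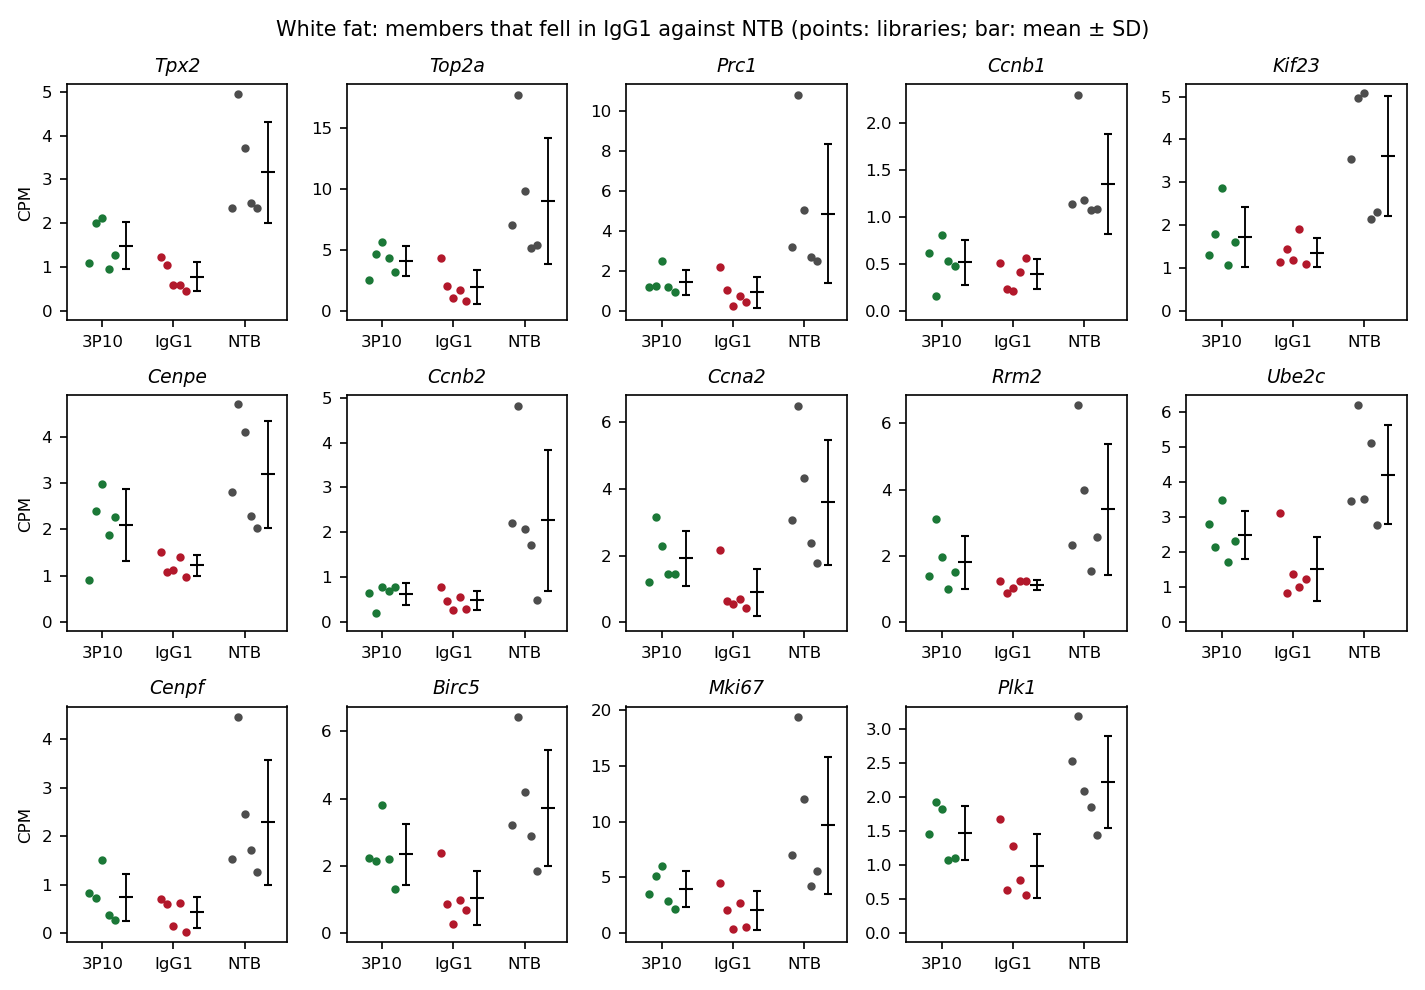
White fat levels, in CPM on the vertical axes, of the 14 members that fell in IgG1 against NTB, by group, each point a library and each bar the mean ± SD of 5 libraries. NTB replicate 2 is the highest NTB library in every panel except Kif23, with 19.3 CPM of Mki67. The mean of 3P10 lies between those of IgG1 and NTB in all 14, which the choice of these members by that gap itself favours.

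The cyclins fell and their kinase did not pass the test. Ccna2, cyclin A2 of S phase and early mitosis, was 1.21, 3.16, 2.29, 1.45 and 1.45 CPM in 3P10, 2.15, 0.644, 0.563, 0.698 and 0.416 CPM in IgG1 and 3.06, 6.47, 4.32, 2.37 and 1.77 CPM in NTB. IgG1 replicate 1 stood apart from the other IgG1 libraries and overlapped NTB. The value was -2.02 (SE 0.47, adjusted p = 0.0220). Ccnb1, the cyclin of mitotic entry, was 0.624, 0.16, 0.815, 0.537 and 0.483 CPM in 3P10, 0.518, 0.241, 0.219, 0.421 and 0.568 CPM in IgG1 and 1.14, 2.31, 1.18, 1.08 and 1.09 CPM in NTB, with no overlap between either tumour group and NTB. It gave -1.78 (SE 0.41, adjusted p = 0.0202), and Ccnb2 gave -2.21 (SE 0.51, adjusted p = 0.0209). Cdk1, the kinase these cyclins activate, was 3.26, 7.09, 7.45, 5.42 and 4.21 CPM in 3P10, 8.33, 4.30, 7.88, 1.94 and 7.31 CPM in IgG1 and 5.15, 9.71, 7.36, 7.41 and 5.71 CPM in NTB. Its groups overlapped throughout, with a value of -0.25 (SE 0.34, adjusted p = 0.655), and Foxm1, a transcription factor of late cell cycle genes, gave -0.41 (SE 0.24, adjusted p = 0.276).

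At the centromere and in the passenger complex 3 of 5 members fell. Cenpf, a kinetochore protein, was 0.831, 0.721, 1.51, 0.376 and 0.276 CPM in 3P10, 0.717, 0.603, 0.156, 0.632 and 0.0379 CPM in IgG1 and 1.53, 4.45, 2.45, 1.72 and 1.27 CPM in NTB. The value of 0.0379 CPM is 1 read, below the floor of 3 reads that a count of 0 allows. IgG1 and NTB did not overlap, and the log2 fold change was -2.39 (SE 0.61, adjusted p = 0.0297). Cenpe, the kinetochore kinesin, gave -1.37 (SE 0.32, adjusted p = 0.0208), and Birc5, survivin, gave -1.84 (SE 0.47, adjusted p = 0.0302). Cdca8, borealin, was at -0.92 (SE 0.35) and Cenpa, the centromeric histone, at -0.22 (SE 0.33), and neither was called.

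Among the mitotic kinases and checkpoint genes, Plk1, a kinase of mitotic entry and spindle poles, fell by 1.17 on the log2 scale (SE 0.33, adjusted p = 0.0425). It averaged 0.991 ± 0.472 CPM in IgG1 and 2.22 ± 0.669 CPM in NTB (SD, n = 5 each). Aurka, Aurkb and Bub1b had values of -0.73, -1.21 and -1.39 and were not called. Ube2c, the ubiquitin-conjugating enzyme of the anaphase-promoting complex, gave -1.48 (SE 0.35, adjusted p = 0.0229), while its coactivator Cdc20 gave -0.93 (SE 0.46, adjusted p = 0.195). Cdca3, a trigger of mitotic entry, did not overlap between the groups but missed the call at -0.73 (SE 0.37, adjusted p = 0.202).

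**Figure D2:**
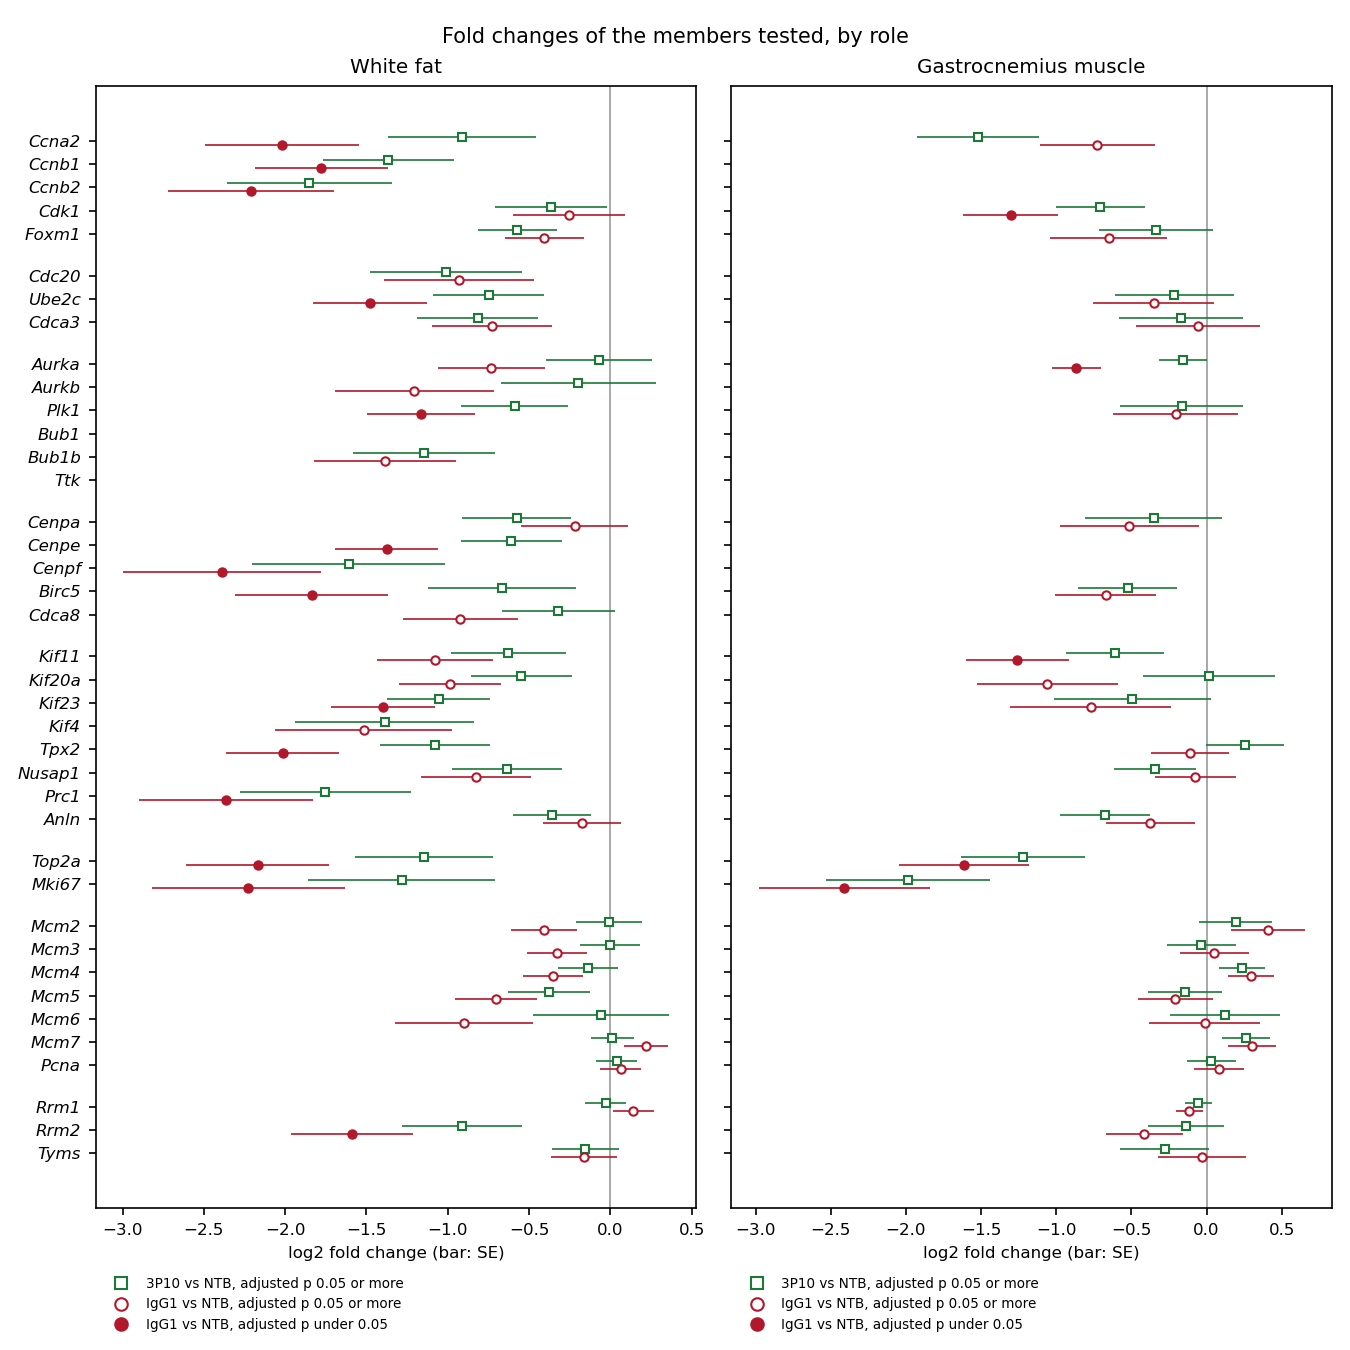
Log2 fold changes of 3P10 against NTB (squares) and IgG1 against NTB (circles) with their SE on the horizontal axis, for each member tested in white fat (left) and muscle (right), ordered by role from the cyclins at the top to the replication genes at the bottom. Filled symbols have an adjusted p under 0.05; all 27 mitosis members lie left of 0 in white fat for IgG1 against NTB.

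Of the replication machinery, 1 of 10 members was called. Mcm2 to Mcm7 encode the replicative helicase, and Pcna the sliding clamp. Their 7 values ran from -0.90 for Mcm6 to 0.22 for Mcm7, and 0 were called. Pcna was 22.5, 20.5, 23.9, 24.8 and 22.96 CPM in 3P10, 20.3, 24.7, 21.7, 23.6 and 26.2 CPM in IgG1 and 18.8, 26.3, 24.1, 16.7 and 25.8 CPM in NTB. Its groups overlapped throughout. The 5 members with the highest mean CPM in white fat, a scale not corrected for length, were all of this kind: Mcm7, Rrm1, Pcna, Mcm3 and Mcm4. Mcm7 averaged 27.98 ± 4.26 CPM in IgG1 and 24.1 ± 2.71 CPM in NTB (SD, n = 5 each). Mcm3 averaged 10.9 ± 2.20 CPM in IgG1 and 13.6 ± 3.12 CPM in NTB, at -0.33 (SE 0.19), and Mcm4 averaged 10.2 ± 2.604 CPM in IgG1 and 13.02 ± 2.27 CPM in NTB, at -0.36 (SE 0.18), with overlapping groups for all 3 genes.

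The subunits of ribonucleotide reductase, which makes the building blocks of DNA, are given apart, and their difference was not tested. Rrm2, the subunit limited to S phase, was 1.39, 3.12, 1.98, 1.02 and 1.52 CPM in 3P10, 1.24, 0.885, 1.03, 1.24 and 1.25 CPM in IgG1 and 2.35, 6.55, 3.98, 1.55 and 2.58 CPM in NTB. The IgG1 and NTB libraries did not overlap, and Rrm2 fell by 1.59 (SE 0.37, adjusted p = 0.0227). Rrm1 averaged 26.7 ± 4.52 CPM in IgG1 and 24.2 ± 2.02 CPM in NTB (SD, n = 5 each), at 0.14 (SE 0.13, adjusted p = 0.484). Tyms, thymidylate synthase, was at -0.17 (SE 0.20).

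Summed over the 29 mitosis members, white fat held 66.3, 40.8, 40.3, 36.0 and 36.7 CPM in IgG1 and 77.3, 152, 105, 78.7 and 67.4 CPM in NTB. No IgG1 library reached the lowest NTB library. The 10 replication members summed to 102 to 126 CPM in IgG1 and 99.5 to 137 CPM in NTB, and those groups overlapped.

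The white fat count leaned on single libraries, although the direction did not. Dropping NTB replicate 2, which had the highest sum, gave 2 calls in place of 14. Dropping IgG1 replicate 5 gave 5 calls, IgG1 replicate 2 gave 6, IgG1 replicate 4 or NTB replicate 3 gave 7, and NTB replicate 1 gave 8. With IgG1 replicates 2 and 4 both dropped, the libraries high in Ucp1 and epithelial markers, Tpx2 was the 1 call. The calls over all genes moved as well, from 344 to 2354 with 1 library left out, against 1245 with all kept. They were 93 without IgG1 replicates 2 and 4. The member median stayed between -1.15 and -0.72 with any 1 library left out. The 8 fibroblast and preadipocyte markers summed to 1423 to 2758 CPM in 3P10, 664 to 1619 CPM in IgG1 and 2353 to 3631 CPM in NTB, with all 8 at 1 CPM or more on average in each group. The 8 macrophage markers in the table, of 9 listed, summed to 299 to 645 CPM in 3P10, 158 to 355 CPM in IgG1 and 262 to 482 CPM in NTB, also with all 8 at 1 CPM or more on average. The 8 endothelial markers summed to 614 to 1257 CPM in 3P10, 496 to 926 CPM in IgG1 and 415 to 1328 CPM in NTB. Their IgG1 and NTB sums overlapped, as did those of the T cell and neutrophil markers. The part of these markers, of Ucp1 and of the epithelial markers in the lower mitosis transcripts was not tested.

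For all 14 members that fell, the white fat mean of 3P10 lay between those of IgG1 and NTB. The 14 were picked for low IgG1 against NTB in these same libraries, which itself favours a 3P10 mean in between. No conclusion is drawn from it. Against IgG1, 0 of 37 members were called in 3P10, where 7.42% of all genes were called, and DESeq2 called 0 as well. At an unadjusted p under 0.05 there were 5 members of 37, against 28.1% of all genes, so the share of members was the lower one. The median was 0.40, and 9 members were below 0. The largest values were 1.17 for Birc5 (SE 0.47, adjusted p = 0.123), 1.11 for Ccna2 (SE 0.47, adjusted p = 0.141) and 1.02 for Top2a (SE 0.43, adjusted p = 0.141), and the smallest p was that of Tpx2, at 0.94 (SE 0.35, adjusted p = 0.0993). Without IgG1 replicate 1, the IgG1 library with the highest mitosis sum, 5 members were called: Birc5, Ccna2, Top2a, Tpx2 and Ube2c. Over all genes the calls ran from 127 to 2304 over single libraries left out, against 1068 with all libraries kept. This comparison shares its IgG1 libraries with the one above.

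Against NTB, 0 members were called in 3P10, as were 0% of the 14402 genes, by edgeR, and 0 members by DESeq2. Even so 35 of 37 members lay below 0, against 51.3% of all genes, with a median of -0.61. This comparison shares its NTB libraries with that of IgG1 against NTB, so the 2 are not independent. At an unadjusted p under 0.05 there were 15 members, against 3.76% of all genes. In 4 members, Ccnb1, Kif4, Prc1 and Tpx2, every 3P10 library was below every NTB library, as in 0.34% of all genes. The largest values were -1.85 for Ccnb2 (SE 0.51, adjusted p = 0.838), -1.75 for Prc1 (SE 0.52, adjusted p = 0.894) and -1.61 for Cenpf (SE 0.59). The mitosis members summed to 46.5, 60.2, 73.2, 51.6 and 46.9 CPM in 3P10, where 1 library passed the lowest NTB library, 67.4 CPM.

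In muscle 27 of the 39 members had enough reads to be tested, and their levels were low. In IgG1 against NTB 5 of 27 fell and 0 rose, where 2.92% of all 13283 genes were called lower and 2.68% higher. All 5 were among the 17 mitosis members tested, whose median was -0.67, and the median of the 10 replication members was 0.02, with 0 called. The median over all 27 was -0.35, against 0.01 for all genes. In 3 members, Aurka, Cdk1 and Kif11, the groups did not overlap with IgG1 lower, as in 3.16% of all genes.

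Aurka, the kinase of centrosomes and spindle poles, had the most reads of the 5. It was 5.61, 7.30, 7.15, 6.08 and 4.69 CPM in 3P10, 3.48, 4.66, 4.34, 3.19 and 3.21 CPM in IgG1 and 7.04, 5.71, 7.93, 7.16 and 6.53 CPM in NTB. The IgG1 libraries lay below all others, and IgG1 against NTB gave -0.87 (SE 0.16, adjusted p = 0.00645). The other 4 rest on few reads. Mki67 had 4, 9, 5, 11 and 9 reads in 3P10, 12, 2, 1, 8 and 3 reads in IgG1 and 52, 29, 11, 42 and 6 reads in NTB. It gave -2.41 (SE 0.57, adjusted p = 0.0225), with NTB replicate 5 inside the range of IgG1. Cdk1 had 5 to 12 reads per library in 3P10, 2 to 7 in IgG1 and 6 to 16 in NTB.

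The Cdk1 value was -1.30 (SE 0.32, adjusted p = 0.0251). Top2a was 0.367, 0.356, 0.301, 0.331 and 0.615 CPM in 3P10, 0.613, 0.216, 0.105, 0.337 and 0.244 CPM in IgG1 and 0.968, 1.41, 0.716, 1.22 and 0.309 CPM in NTB, where 3 reads correspond to 0.0838 to 0.143 CPM across muscle libraries. It gave -1.61 (SE 0.43, adjusted p = 0.0393), and 2 IgG1 libraries overlapped NTB. Kif11, the kinesin that pushes the spindle poles apart, averaged 0.281 ± 0.0726 CPM in IgG1 and 0.663 ± 0.158 CPM in NTB (SD, n = 5 each), at -1.26 (SE 0.34, adjusted p = 0.0429).

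**Figure D3:**
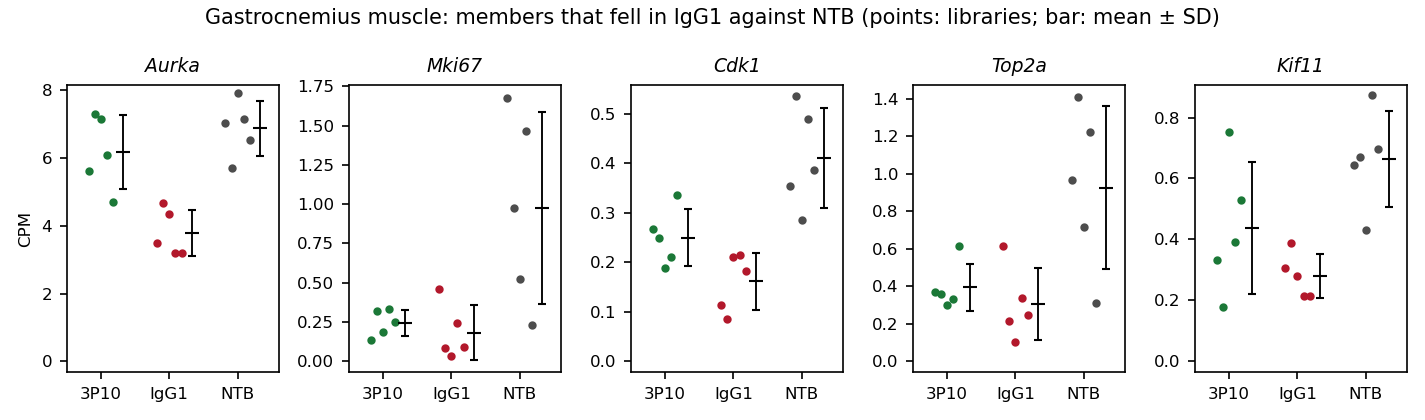
Muscle levels, in CPM on the vertical axes, of the 5 members that fell in IgG1 against NTB, by group, each point a library and each bar the mean ± SD of 5 libraries. For Aurka the 3P10 points, 4.69 to 7.30 CPM, overlap those of NTB, and for Mki67 they stay at 0.331 CPM or below.

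Summed over the 29 mitosis members, muscle held 20.7, 19.3, 20.6, 20.8 and 18.7 CPM in 3P10, 17.8, 18.4, 15.7, 12.9 and 13.5 CPM in IgG1 and 24.6, 23.7, 26.2, 27.9 and 19.8 CPM in NTB. IgG1 lay below both other groups without overlap. Aurka alone averaged 6.17 CPM in 3P10, 3.78 CPM in IgG1 and 6.87 CPM in NTB, a large part of these sums. Tpx2 was another large part, at 5.59 CPM in 3P10, 4.34 CPM in IgG1 and 4.70 CPM in NTB. The next mitosis member by mean over all muscle libraries, Cdca3, was at 1.08 CPM, so 2 members dominate the sums. Of the mitosis roles, only the kinases and checkpoint genes, which hold Aurka, had IgG1 below both other groups without overlap. Their sums were 5.22 to 8.37 CPM in 3P10, 3.71 to 5.11 CPM in IgG1 and 6.68 to 8.64 CPM in NTB. The spindle and cytokinesis sums of IgG1, 4.35 to 8.27 CPM, overlapped both other groups. The separation of the whole sum thus leaned on Aurka. The cyclins, Cdk1 and Foxm1 together summed to 0.941 to 1.20 CPM in 3P10, 0.764 to 1.21 CPM in IgG1 and 1.47 to 2.19 CPM in NTB, so for them both tumour groups lay below NTB. Besides Aurka, the members with the highest mean CPM in muscle were replication genes. Rrm1 averaged 28.5 ± 1.26 CPM in 3P10, 27.4 ± 1.89 CPM in IgG1 and 29.7 ± 1.21 CPM in NTB, at -0.12 (SE 0.09) in IgG1 against NTB. Pcna was at 0.08 (SE 0.16) in that comparison, with 6.24 to 12.9 CPM in IgG1 and 8.12 to 10.9 CPM in NTB. The groups overlapped for both genes. Mcm7 averaged 10.5 ± 2.42 CPM in IgG1 and 8.54 ± 1.12 CPM in NTB, at 0.30 (SE 0.16), and Mcm2 averaged 6.34 ± 1.02 CPM in IgG1 and 4.76 ± 1.73 CPM in NTB (all SD, n = 5 each), at 0.41 (SE 0.24). Neither was called.

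Replication members summed to 63.0 to 69.7 CPM in 3P10, 59.3 to 77.0 CPM in IgG1 and 61.1 to 66.1 CPM in NTB.

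Set against 5 muscle calls in IgG1 against NTB, 1 was made when IgG1 replicate 2 or NTB replicate 1, 2 or 4 was dropped. There were 2 calls when IgG1 replicate 3, 4 or 5 was dropped, and 3 when 3P10 replicate 1 or 4 was. Over all genes the muscle calls ran from 327 to 1307 over single libraries left out, against 744 with all kept. Aurka was called in every one of 22 alternatives. Without the 4 libraries that stood apart, 4 members were called and the median was -0.58. The 8 fibroblast and preadipocyte markers summed to 509 to 676 CPM in 3P10, 480 to 686 CPM in IgG1 and 777 to 926 CPM in NTB, and the 5 satellite cell markers to 37.9 to 51.4 CPM in 3P10, 57.6 to 73.5 CPM in IgG1 and 38.6 to 62.8 CPM in NTB, with every marker of both lists at 1 CPM or more on average. Endothelial markers summed to 142 to 228 CPM in 3P10, 100 to 205 CPM in IgG1 and 135 to 305 CPM in NTB. Macrophage markers summed to 50.9 to 81.1 CPM in 3P10, 50.9 to 66.2 CPM in IgG1 and 47.1 to 77.5 CPM in NTB. Both overlapped between all groups. The part of all these markers in the lower transcripts was not tested.

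In 3P10 against IgG1, 0 of 27 muscle members were called by edgeR, where 0.211% of all genes were. At an unadjusted p under 0.05 there were 2, Aurka and Kif20a, against 10.8% of all genes. Aurka was the only member whose groups did not overlap, with 3P10 higher, as in 1.03% of all genes, at 0.71 (SE 0.16, adjusted p = 0.0819), and DESeq2 called it. Under the 7 settings other than leaving 1 library out, DESeq2 among them, 7 to 284 genes were called, against 28. Kif20a, a kinesin of cytokinesis, was at 1.07 (SE 0.47, adjusted p = 0.417) and Ccna2 at -0.80 (SE 0.42, adjusted p = 0.524).

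In 3P10 against NTB 0 muscle members were called, as were 0% of all genes by edgeR, and DESeq2 called 0 members. At an unadjusted p under 0.05 there were 5, against 4.24% of all genes. The largest values were those of Mki67 at -1.99 (SE 0.54, adjusted p = 0.604), Ccna2 at -1.52 (SE 0.40, adjusted p = 0.592) and Top2a at -1.22 (SE 0.41, adjusted p = 0.820), and 20 of 27 members lay below 0. Only Nusap1, which bundles spindle microtubules near chromosomes, had groups without overlap, with 3P10 lower, as in 1.17% of all genes, and its value was -0.35 (SE 0.27). Both muscle comparisons of 3P10 share a group of libraries with IgG1 against NTB.

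**Figure D4:**
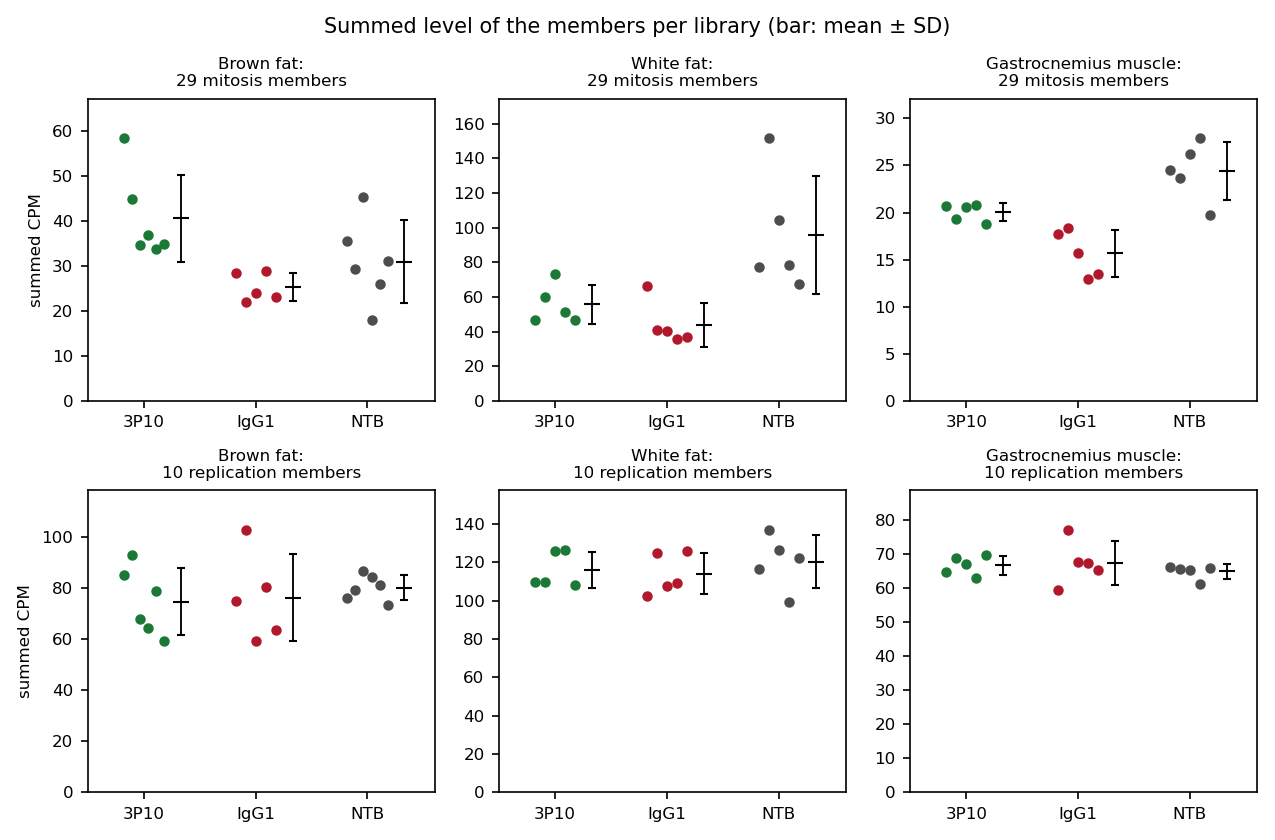
Summed CPM (vertical axes) of the 29 mitosis members (top) and 10 replication members (bottom) in each library of brown fat, white fat and muscle, by group, with the mean ± SD. The mitosis sums of IgG1 lie below those of NTB in white fat and in muscle without overlap. In muscle Aurka and Tpx2 are a large part of them. The replication sums overlap between all groups in each tissue.

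An interaction term in 1 fit of both tissues asked whether the IgG1 against NTB effect was unequal in white fat and muscle. All 39 members could be tested there, also those with too few reads to be tested in muscle alone. Of these 39 members 1 was called, against 1.11% of all genes. Tpx2 differed by -1.88 (white fat minus muscle, SE 0.42, adjusted p = 0.0265). In muscle it was 7.41, 3.63, 5.30, 6.23 and 5.36 CPM in 3P10, 5.17, 5.52, 4.16, 2.88 and 3.97 CPM in IgG1 and 2.94, 3.22, 7.55, 5.17 and 4.64 CPM in NTB, with all groups overlapping, at -0.11 in IgG1 against NTB, against -2.02 in white fat. White fat and muscle libraries of a group carry the same library numbers in their titles, and whether they come from the same mice is not stated. The fit takes them as independent. With the library number as a block the value was -1.90 (SE 0.42, adjusted p = 0.0718), and the call was lost. It was also lost without white fat IgG1 replicate 4, NTB replicate 2 or NTB replicate 3 and without muscle IgG1 replicate 2, NTB replicate 1 or NTB replicate 2. Cdk1 was below 0 in both tissues and lower in muscle, at -0.25 in white fat and -1.30 in muscle. The difference of 1.08 (SE 0.50, adjusted p = 0.285) was not called. For 3P10 against IgG1 0 members were called by edgeR or DESeq2, against 0.208% of all genes, and 2, Bub1 and Ccna2, had an unadjusted p under 0.05. The share of all genes at that threshold was not counted. Bub1, tested in neither tissue alone, had 0 reads in muscle 3P10 and 5 reads in muscle IgG1 over all libraries. Its value of 4.99 (SE 1.67) thus rests on very few reads. Dropping white fat IgG1 replicate 1 made Ccna2 a call.

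Brown fat was read at the 3-prime end and at far lower depth, and most members lay near or under the floor. A count of 0 allows up to 3 reads, which is 1.25 to 3.68 CPM in these libraries. Over all 17 libraries, Aurkb and Bub1 had 1 read each, Bub1b and Kif4 3, Cdc20 and Ttk 4 and Ccnb2 5. Only Mcm4, Mcm7, Pcna and Rrm1 had enough reads to be tested, and 0 of 4 were called in any comparison, by edgeR or DESeq2, with 0 at an unadjusted p under 0.05. Of all 8711 genes, 2.97% were called in IgG1 against NTB, 11.6% in 3P10 against IgG1 and 5.75% in 3P10 against NTB.

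The large subunit gene Rrm1 had 34, 29, 44, 16, 21 and 18 reads in 3P10, 25, 35, 16, 31 and 28 reads in IgG1 and 20, 22, 17, 28, 33 and 35 reads in NTB. Its log2 fold change was -0.35 (SE 0.18, adjusted p = 0.215) in 3P10 against IgG1, -0.24 (SE 0.17) in 3P10 against NTB and 0.11 (SE 0.18) in IgG1 against NTB. Mcm4, Mcm7 and Pcna had values between -0.30 and 0.20. Tyms, the fifth by mean CPM, averaged 7.77 ± 2.95 CPM in 3P10 (n = 6), 5.50 ± 2.29 CPM in IgG1 (n = 5) and 5.50 ± 1.67 CPM in NTB (n = 6, all SD).

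The mitosis members together gave 33 to 83 reads per library in 3P10, 21 to 32 in IgG1 and 22 to 43 in NTB. Scaled by library, their sum was 58.4, 44.8, 34.6, 36.9, 33.8 and 34.9 CPM in 3P10, 28.4, 21.99, 23.9, 28.9 and 23.2 CPM in IgG1 and 35.6, 29.4, 45.4, 17.997, 25.9 and 31.03 CPM in NTB. Every 3P10 library lay above every IgG1 library, while NTB overlapped both. Birc5 and Cenpa held 52 and 54 of the 328 reads in 3P10, 20 and 25 of the 133 in IgG1 and 24 and 42 of the 196 in NTB. Birc5 had 22, 5, 9, 8, 4 and 4 reads in 3P10, 5, 1, 6, 6 and 2 reads in IgG1 and 0, 3, 7, 2, 2 and 10 reads in NTB. The mitosis sums have no test, and library order and group cannot be told apart. The 6 brown fat cell markers summed to 8181 to 11495 CPM in 3P10, 6734 to 7061 CPM in IgG1 and 7167 to 8837 CPM in NTB. Muscle fibre, endothelial, fibroblast and macrophage marker sums overlapped between 3P10 and IgG1. The part of these markers in the mitosis sums was not tested.

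**Figure D5:**
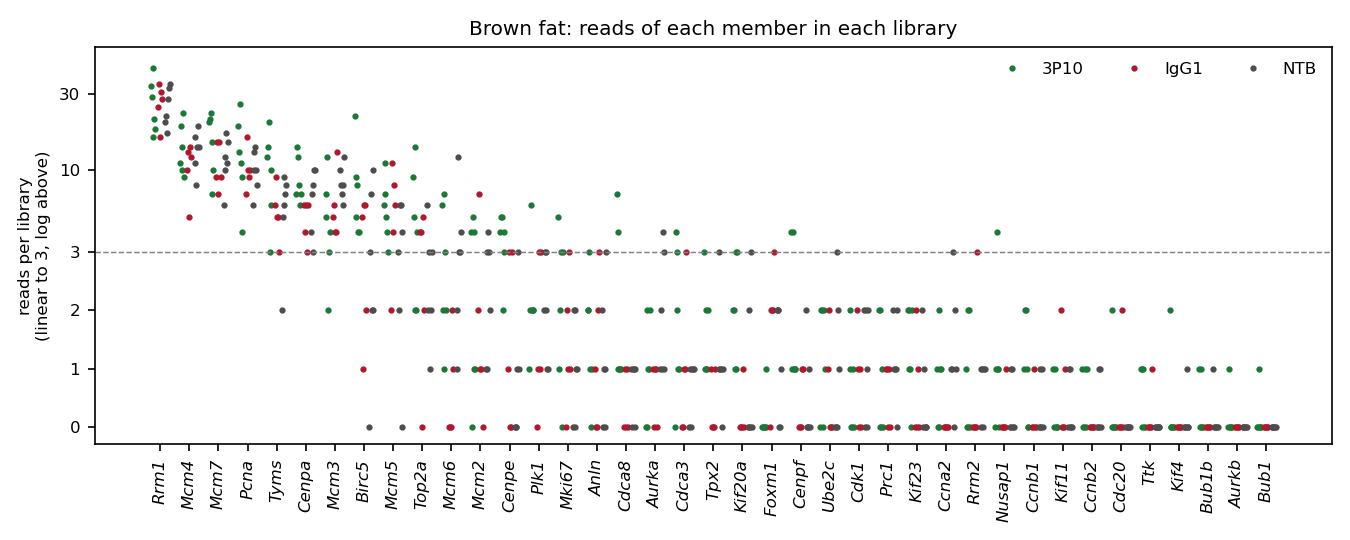
Reads of each member in each of the 17 brown fat libraries, by group, with members ordered by their total; the vertical axis is linear up to 3 reads, the dashed line, and logarithmic above. Rrm1, at the left, reaches 44 reads, and the members at the right, such as Bub1 and Aurkb, stay at or below 3 reads in all 17 libraries.

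Other cell cycle genes, from lists that do not hold the members, were counted for the same comparisons. In white fat 12 of 58 other mitosis genes fell in IgG1 against NTB and 2 rose, where 4.55% of all genes were called lower and 4.09% higher, and the median was -0.91, against -0.01 for all genes. Kif22, a chromosome arm kinesin, averaged 0.802 ± 0.189 CPM in IgG1 and 2.95 ± 1.10 CPM in NTB (SD, n = 5 each), at -1.88 (SE 0.35, adjusted p = 0.00906). Cep55, which acts at abscission, gave -1.47 (SE 0.28, adjusted p = 0.00990). The genes that rose were Wee1, which encodes an inhibitory kinase of Cdk1, at 0.89 (SE 0.23, adjusted p = 0.0302) and the condensin subunit gene Ncapg2 at 0.78 (SE 0.23, adjusted p = 0.0498).

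Of 53 other replication genes 3 fell, Clspn, Brca1 and Chaf1a, and 1 rose, the uracil glycosylase gene Ung, which is near those shares for all genes. Clspn, a replication checkpoint adaptor, gave -2.22 (SE 0.42, adjusted p = 0.00939). The list of 8 G1 genes held cyclins and their kinases and also Myc and Mycn. Of these 8 genes 1 fell and 0 rose. Ccnd1, cyclin D1, fell to 12.6 ± 5.02 CPM in IgG1, against 38.5 ± 16.8 CPM in NTB (SD, n = 5 each), a value of -1.61 (SE 0.31, adjusted p = 0.00939). Of 18 genes of cell cycle exit, Cdkn2c and Gas1 fell, against the same shares for all genes.

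In 3P10 against IgG1 in white fat, Wee1 was at -1.29 (SE 0.23, adjusted p = 0.0123) and Ung at -0.84 (SE 0.21, adjusted p = 0.0311), and both fell, where 7.42% of all genes were called in either direction. Clspn rose by 1.805 (SE 0.42, adjusted p = 0.0264), and Cdkn2c, Smc4 and Cdkn1b rose by 0.72, 0.49 and 0.39. Of 58 other mitosis genes 1 rose and 1 fell, and of 53 other replication genes 1 rose and 1 fell. Both lists were thus called less often than all genes. Of 8 G1 genes 0 were called, and of 18 exit genes 2 rose and 0 fell. Both comparisons share the IgG1 libraries.

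In muscle, Ccnd1 fell to 1.77 ± 0.460 CPM in IgG1, against 6.51 ± 3.23 CPM in NTB (SD, n = 5 each), at -1.88 (SE 0.32, adjusted p = 0.00406). Mycn fell by 1.95 (SE 0.45, adjusted p = 0.0185) and Myc rose by 1.17 (SE 0.30, adjusted p = 0.0342). With Ccnd1, 2 of the 8 genes of the G1 list fell and 1 rose. Of 28 other mitosis genes 1 fell, Ccnf, and of 43 other replication genes 1 fell, the histone mRNA binding gene Slbp, where 2.92% of all genes were called lower, so both shares were near that of all genes. Of 17 genes of cell cycle exit 4 rose, where 2.68% of all genes were called higher, and 0 fell: E2f4, Btg2, Cdkn1b and Ccng2. Cdkn1b, which encodes the inhibitor p27, averaged 108.5 ± 29.3 CPM in IgG1 and 66.0 ± 12.5 CPM in NTB (SD, n = 5 each), at 0.72 (SE 0.19, adjusted p = 0.0383).

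In brown fat, Cdkn1a, which encodes the inhibitor p21, averaged 61.3 ± 30.5 CPM in 3P10 (n = 6), 288 ± 177 CPM in IgG1 (n = 5) and 62.7 ± 22.1 CPM in NTB (n = 6, all SD). It gave -2.28 (SE 0.37, adjusted p = 0.000662) in 3P10 against IgG1 and 2.21 (SE 0.37, adjusted p = 0.00387) in IgG1 against NTB. Cdkn1a was not called in white fat, at -0.57 (SE 0.37), or in muscle, at 0.50 (SE 0.27), in IgG1 against NTB, and whether its effect differed between tissues was not tested for brown fat. Rfc3, a clamp loader subunit gene, rose by 1.28 (SE 0.37, adjusted p = 0.0267) in 3P10 against IgG1 in brown fat and Cdc25a by 0.60 (SE 0.17, adjusted p = 0.0219), while Ccnd2, Btg2 and Foxo1 fell. These are 2 of 16 other replication genes, 1 of 5 G1 genes and, with Cdkn1a, 3 of 13 exit genes, where 11.6% of all genes were called. In 3P10 against NTB, Ccnd2 fell by 0.56 (SE 0.14, adjusted p = 0.0222), and the exit genes Cdkn1c and Btg2 fell by 0.72 (SE 0.17, adjusted p = 0.0178) and 0.53 (SE 0.15, adjusted p = 0.0435), where 5.75% of all genes were called. In IgG1 against NTB, Cdkn1c, which encodes the inhibitor p57, fell by 0.75 (SE 0.18, adjusted p = 0.0275), where 2.97% of all genes were called. Of 9 other mitosis genes 0 were called by edgeR in any brown fat comparison, and 1 had an unadjusted p under 0.05 in each.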

How the data were processed

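The authors deposited raw read counts per gene symbol, in 1 table for brown fat and 1 for white fat and muscle. Per the labels' protocols, brown fat libraries were made with a kit for the 3-prime end of transcripts with unique molecular identifiers, and the others with a directional kit. The submitters' processing notes name the tools Trim Galore, STAR 2.6.0a, featureCounts 1.6.2 and edgeR 3.22.3 and the build mm9. The annotation, the strand setting, the handling of reads shared by near-identical copies and any collapse by identifier were not given in the sources used here, so no gene coordinates in mm9 are printed.

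Each tissue was fitted apart on the deposited counts with R 4.3.3 and edgeR 4.0.16: 3 groups in 1 quasi-likelihood model, TMM factors, filterByExpr (minimum count 10, minimum total 15), 2-sided tests and Benjamini-Hochberg adjustment over all genes of a comparison. Residual degrees of freedom came to 14 (brown fat) and 12 (the others). SE is the absolute log2 fold change over the square root of F. CPM uses TMM-scaled library totals. The labels name separate samples but no animals, so p-values measure the spread between these samples. No libraries of a group agreed within sampling noise (smallest chi-square per gene 2.33). Floors of 3 reads cover counting error only. Deviations of same-numbered replicates correlated at -0.14 to 0.08 (brown fat), -0.21 to 0.47 (white fat) and -0.60 to 0.56 (muscle), so the numbers were not taken to pair samples. The fits were tested on simulated data. Brown fat was left out of the interaction fit because its kit and table differ.

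The members, lists, tests and markers were chosen with earlier results of these data known. Values are given for members called in any comparison, for the 5 with the highest mean CPM in a tissue, for the 3 with the largest change in a comparison and for up to 5 called genes of each other list. The remaining members are given where a role is described, and Wee1, Ncapg2, and Cdkn1a outside brown fat were named after their values were seen. Alternatives were DESeq2 1.42.0, RLE factors, other filters, other samples in the fit, dropping each library in turn, and a block for the replicate number. Promoters are from RefSeq, GRCm38.p6, 1 window per symbol.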

Additional observations from a re-analysis of the deposited data

Results flagged for a closer look

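Among 84 groups looked at, 9 held a library far from the others, and chance alone marks about 1 in 20 groups. In white fat IgG1, replicate 1 was high: its 29 mitosis members summed to 66.3 CPM against 36.0 to 40.8 CPM in the other 4 libraries, with Ccna2 at 2.15 CPM and Ube2c at 3.11 CPM. White fat NTB replicate 2 had 2.31 CPM of Ccnb1, against 1.08 to 1.18 CPM in the other NTB libraries. White fat 3P10 replicate 2 had 0.200 CPM of Ccnb2, against 0.658 to 0.793 CPM, and 3P10 replicate 3 had 2.52 CPM of Prc1, against 0.965 to 1.28 CPM. Muscle 3P10 replicate 5 had 0.615 CPM of Top2a, against 0.301 to 0.367 CPM. Muscle NTB replicate 4 had a replication sum of 61.1 CPM, against 65.3 to 66.1 CPM. Brown fat NTB replicate 3 had a sum over all members of 132 CPM, against 102 to 111.6 CPM.

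The fold change of Tpx2 in IgG1 against NTB differed between white fat and muscle by -1.88 (SE 0.42, adjusted p = 0.0265 in the edgeR interaction fit). All 5 white fat IgG1 libraries were below the NTB libraries, and the muscle libraries overlapped.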

How the results depend on the processing

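In white fat IgG1 against NTB the member median kept its size, with -1.15 to -0.72 over single libraries left out and -1.04 to -0.91 under the other 7 alternatives. The calls moved: 2 to 17 over single libraries left out, where those over all genes ran from 344 to 2354. With IgG1 libraries 2 and 4 both left out 1 member was called, where the count over all genes was 93 in place of 1245. Tpx2 in white fat and Aurka in muscle were called in 22 of 22 alternatives, Top2a in white fat in 21 and Plk1 in 11. DESeq2 added Bub1b, Kif11, Kif20a and Mcm5 in white fat. In 3P10 against IgG1 the white fat calls ran from 0 to 5 over single libraries left out. Over all genes they ran from 127 to 2304.

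In muscle IgG1 against NTB the calls ran from 1 to 5 over single libraries left out, and from 327 to 1307 over all genes. The member calls were 3 with no low-count filter, 1 with at least 1 CPM in 5 libraries and 1 with the 2 compared groups alone. The median there was -0.52, -0.10 and -0.21 under those settings and -0.58 without the 4 libraries that stood apart. In muscle 3P10 against NTB the median was -0.33 with no filter, -0.050 with at least 1 CPM in 5 libraries, -0.30 without those 4 libraries and -0.31 to -0.14 over single libraries left out. In muscle 3P10 against IgG1 it was -0.033 with at least 1 CPM in 5 libraries, and DESeq2 called 1 member. Over all genes that comparison had 7 to 284 calls under the 7 settings other than leaving 1 library out. The interaction calls ran from 0 to 1 over single libraries left out in both comparisons.

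In brown fat the median in 3P10 against IgG1 was 0.54 with no filter and 0.36 with at least 1 CPM in 5 libraries, and in 3P10 against NTB it was 0.24 with no filter. Settings with another filter test other members. For the rest the cause was not tested.

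With the replicate block the muscle count in IgG1 against NTB was 2, and with the library number as a block the interaction count in IgG1 against NTB was 0. No other count of members moved by over 1.5 times under the block. Deviations of white fat and muscle libraries with the same number correlated at -0.16 to 0.20, and the labels do not say whether they share a mouse.

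In the 250 bases before the start alone, a CHR, and likewise CCAAT with CHR, was found in 30.3% of all members matched. The share was 33.3% of mitosis members and 22.2% of replication members. The shorter promoter window, the member sums under other scalings and the naming of white fat NTB replicate 2 were chosen after seeing the data. No called member changed its direction under the alternatives run, while some medians over uncalled members crossed 0: in brown fat (0.07 in 3P10 against IgG1, -0.05 in 3P10 against NTB and 0.01 in IgG1 against NTB as reported), in muscle 3P10 against IgG1 (0.14), and in the white fat minus muscle difference for 3P10 against IgG1 (0.09, with -0.03 to 0.31 over single libraries left out). At brown fat depth, differences in members under 3 reads were not detectable.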
